A study of Saccharomyces cerevisiae with 11 samples.

Results

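The ribosome biogenesis genes described here are 51 genes of budding yeast (Saccharomyces cerevisiae) that encode assembly factors of the ribosome, chosen by name from the small subunit processome, the NOP, RRP and NOC families, DEAD-box helicases and related factors. They were 51 of 6256 genes on an Agilent whole-genome array, and all 51 were found by their systematic names. By their known roles, 22 act on the small (40S) subunit and 23 on the large (60S) subunit, and 6 act on both or were left unassigned. Total RNA was measured on 11 arrays with 2 colours, each of which set 1 experimental RNA against a reference RNA. The experimental RNAs came from 5 strains, each with a single histone chaperone deleted (Asf1, Chz1, Nap1, Vps75 or Rtt106), that had been treated with trichostatin A (TSA), from the parent BY4742 (wild type) treated with TSA, and from the same 5 deletion strains without TSA. The reference was read as untreated wild type RNA. All strains derive from BY4742, a laboratory strain of the alpha mating type that also lacks HIS3, LEU2, LYS2 and URA3, and all grew at 30 °C in rich glucose medium. TSA, an inhibitor of histone deacetylases, was given at 10 µM for 1 hour once cultures had reached an optical density of 0.5. The density of the untreated cultures, and whether a strain was 1 clone, are not stated in the labels.

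Ribosome assembly starts in the nucleolus while RNA polymerase I still transcribes the ribosomal RNA precursor. The small subunit processome, a large particle built around the U3 small nucleolar RNA, folds and cuts the part of the precursor that becomes the 40S subunit. A separate set of helicases, methyltransferases and scaffold proteins builds the 60S subunit, and export factors take both particles to the cytoplasm. In yeast the genes for these factors form a regulon that is transcribed in step with growth. It is known to fall together in many stresses, while a set of general stress genes rises.

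Every strain and treatment was measured once, so the p-values below treat the 5 deletion strains as the replicates and measure only the spread between these arrays, and single arrays have no test. Values are log2 ratios of experimental over reference RNA on loess-normalized arrays. On each array 0 is the middle of genes of like brightness, not of all genes. A ratio is therefore a gene's level relative to genes of like brightness, and less RNA per cell cannot be told apart from fewer cells that make it. The deleted gene stood at −4.53 to −2.86 on the 10 arrays of its own strain, which fixed the direction of those arrays and showed that the reference held the gene. The wild type array has no such gene and its direction is only likely. Per the labels the experimental RNA was on the same dye on every array, so for ratios against 0 a gene's dye bias and its RNA difference cannot be told apart, whereas a difference between an array with and an array without TSA does not hold a constant dye bias. The nap1 deletion may be an exception, because on its array without TSA the deleted gene was low in the other signal column than on the other 9 arrays of deletions, and whether columns or dyes were exchanged was not tested. The median signal of a channel was 357 to 1095, and the log2 ratios of the 2 repeat measurements of each array had a correlation of 0.768 to 0.969 across genes. The array of the chz1 deletion without TSA stood apart, with an SD of 0.54 over all genes against 0.19 to 0.42 on the others. In the reference channel the 4 genes typical of alpha cells had median signals over the arrays of 209.9 to 1299 times those of the deleted marker genes, and the 6 genes typical of a cells had medians of 1.07 to 20.1 times. In the experimental channel the lowest value of a gene typical of alpha cells on any array was 11.8 times, that of SAG1. There the highest values of the genes typical of a cells ran from 3.31 times (ASG7) to 28.9 times (STE6).

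All 51 genes were bright enough to be measured in both channels on all 11 arrays, and all 51 were tested among 5916 genes. Their signals in the reference channel ran between 224.5 and 16376. The 2 repeat measurements of a gene differed little, with a median SD of 0.02 to 0.07 over the 51 genes on each array. The largest repeat SD was that of RLP24 on the array of the chz1 deletion without TSA, at 0.70.

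The median of the ribosome biogenesis genes was below untreated wild type on 10 of the 11 arrays and above it on 1. With TSA their median was −0.29 in the asf1 deletion, −0.49 in the chz1 deletion, −0.14 in the nap1 deletion, −0.21 in the rtt106 deletion and −0.28 in the vps75 deletion. In the wild type with TSA it was −0.11. Without TSA it was −0.09 in the asf1 deletion, 0.53 in the chz1 deletion, −0.30 in the nap1 deletion, −0.17 in the rtt106 deletion and −0.11 in the vps75 deletion. The lowest median and the highest one thus came from the same strain, the chz1 deletion with and without TSA. Below 0 were 51 of 51 genes in the asf1 and chz1 deletions with TSA, 44 in the nap1, 46 in the rtt106 and 50 in the vps75 deletion with TSA, and 38 in the wild type with TSA. Without TSA the counts below 0 were 42 in the asf1, 4 in the chz1, 48 in the nap1, 45 in the rtt106 and 47 in the vps75 deletion. On all 5 arrays of deletions with TSA, 39 of 51 genes were below 0, against 14.7% of all genes tested. On the 4 arrays of deletions without TSA other than chz1, 35 of 51 were below 0, against 11.5% of all genes. On those 9 arrays together 30 of 51 were below 0, against 6.1% of all genes.

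**Figure D1:**
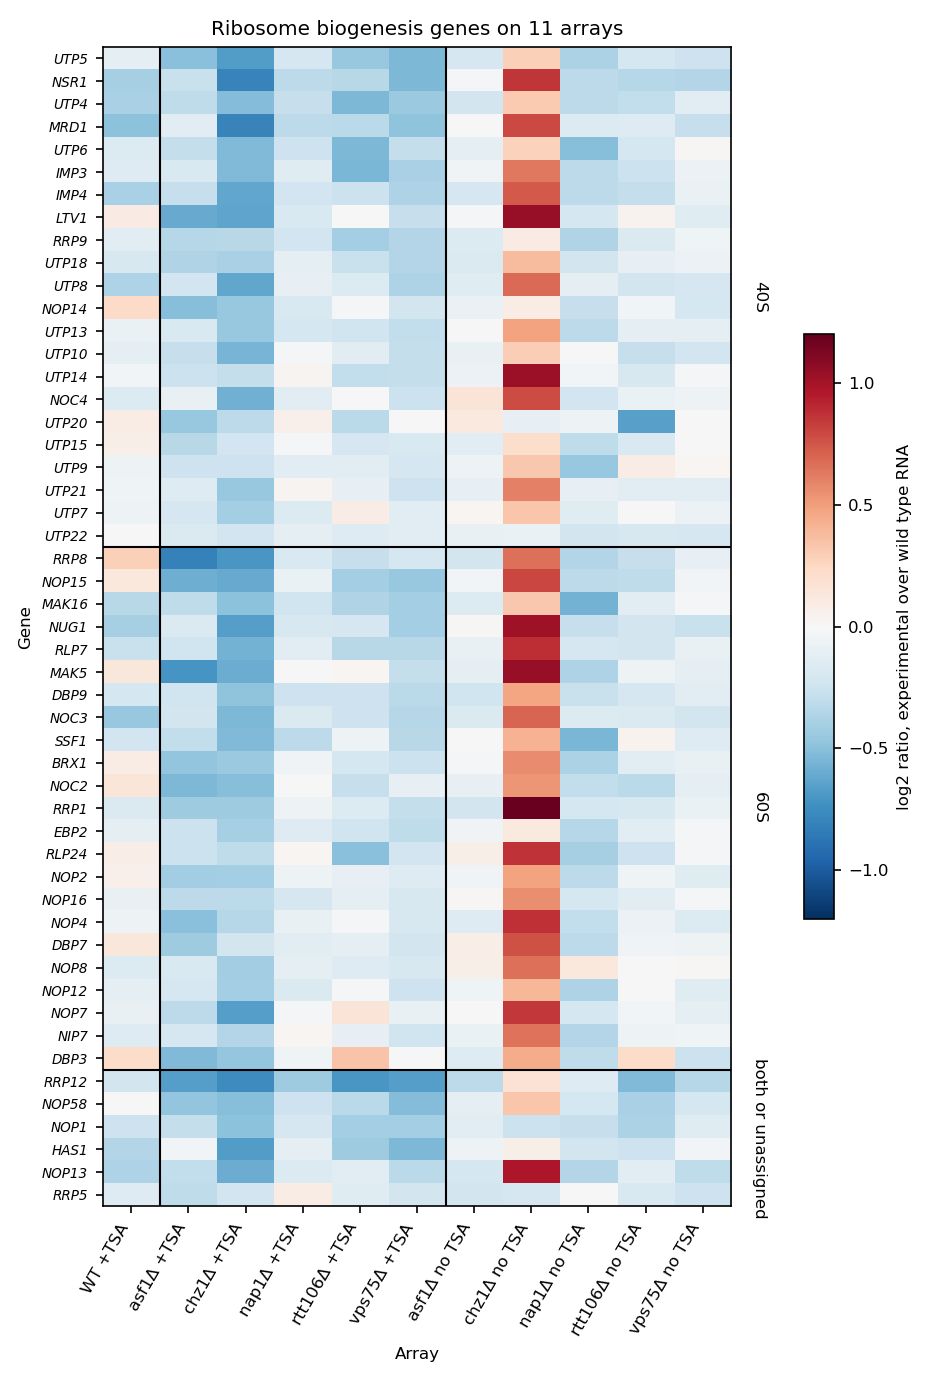
Log2 ratio of experimental over reference RNA (colour) for each of the 51 genes (rows, sorted within their subunit class by their mean on the deletion arrays with TSA) on each of the 11 arrays (columns). Blue is below 0. In the column of the chz1 deletion without TSA 47 of 51 genes are above 0, against 13 in that of the wild type with TSA and 0 to 9 in the others.

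Most of these differences were small. A ratio at or past 1.5-fold lower was reached by 14 genes in the chz1 deletion with TSA, against 2.42% of all genes, and by 5 in the asf1 deletion with TSA, against 2.81%. It was reached by 1 gene, RRP12, in the rtt106 deletion with TSA (3.82% of all genes) and in the vps75 deletion with TSA (1.35%). In the rtt106 deletion without TSA 1 gene, UTP20, was at least 1.5-fold lower (1.34% of all genes). No member was that low in the wild type with TSA (0.541% of all genes), the nap1 deletion with TSA (0.456%) or, without TSA, the asf1 (1.08%), nap1 (0.423%) and vps75 deletions (0.744%). In the chz1 deletion without TSA 23 of 51 genes were at least 1.5-fold higher, against 9.69% of all genes.

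The comparison with the most calls was that of the TSA-treated deletions with untreated wild type, which asks where these cells differ from untreated parent cells. Over the 5 arrays, 18 of 51 genes were lower at an adjusted p under 0.05 and 0 were higher (limma with Benjamini-Hochberg adjustment over all genes). Among all genes 206 of 5916, or 3.48%, were lower by the same test and 202, or 3.41%, were higher. The median of the 51 genes was −0.29, and all 51 means were below 0. At an unadjusted p under 0.05 45 of 51 were lower, against 14.6% of all genes. The called genes were 9 of 22 factors of the 40S subunit, 6 of 23 of the 60S subunit and 3 of the other 6. RRP12, an export factor of both subunits, had the lowest mean at −0.64 (SE 0.06, adjusted p = 0.009), or 0.642 times the wild type level. The count of 18 was lower whichever strain was left out: it was 8 without the asf1 array, 5 without nap1, 1 without rtt106, 1 without vps75 and 0 without chz1. Each of these fits had fewer arrays, and the calls among all genes were fewer too, as given at the end. The count was 0 in the authors' rounded series matrix, 1 (RRP12) where the vps75 arrays were exchanged as in that matrix, and 31 with median centring.

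**Figure D2:**
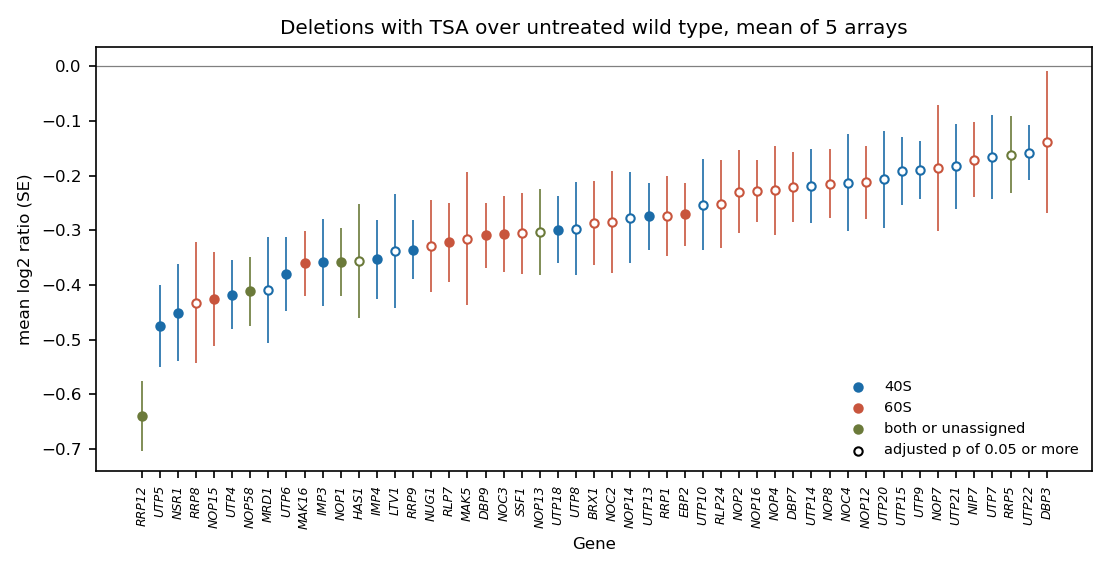
Mean log2 ratio of the 5 deletion arrays with TSA over untreated wild type for each gene, with its SE, coloured by subunit class. Filled points are the 18 genes with an adjusted p under 0.05, RRP12 is the lowest at −0.64, and all 51 points are below 0.

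The 40S factors begin with UtpA, the subcomplex of the processome that first binds the nascent ribosomal RNA. Of its 6 members here 2 were called lower than untreated wild type on the TSA arrays, which is not a test of TSA itself. These were UTP5 at −0.47 (SE 0.07, adjusted p = 0.025, limma) and UTP4 at −0.42 (SE 0.06, adjusted p = 0.022). Both were called in 7 of 9 processing settings and in 2 of 5 fits with a strain left out. With TSA the ratio of UTP5 was −0.50 in asf1, −0.67 in chz1, −0.20 in nap1, −0.54 in vps75 and −0.46 in rtt106. It was −0.12 in the wild type with TSA and, without TSA, −0.20 in asf1, 0.28 in chz1, −0.38 in nap1, −0.25 in vps75 and −0.21 in rtt106. Its arrays with and without TSA overlapped, since the nap1 deletion with TSA lay above the nap1, vps75 and rtt106 deletions without TSA. The others, UTP8, UTP9, UTP10 and UTP15, had means of −0.30 to −0.19 and did not pass.

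Of UtpB, the subcomplex that joins UtpA on the precursor, 3 of 4 members were called lower than untreated wild type on the TSA arrays. These were UTP6 at −0.38 (SE 0.07, adjusted p = 0.031), UTP18 at −0.30 (SE 0.06, adjusted p = 0.040) and UTP13 at −0.27 (SE 0.06, adjusted p = 0.048, limma). UTP18 recruits the exosome helicase Mtr4 to the processome. UTP21, the remaining member, had a mean of −0.18 (adjusted p = 0.18, limma). UTP6 was called in 7 of 9 processing settings, UTP18 in 5 and UTP13 in 4. With 1 strain left out UTP6 was called in 1 of 5 fits and UTP18 and UTP13 in 0.

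Of the 10 other processome proteins, 3 were called lower than untreated wild type on the TSA arrays. RRP9, a U3-specific protein, had a mean of −0.34 (SE 0.05, adjusted p = 0.025), and IMP3 and IMP4, which bring U3 and the precursor together with Mpp10, had means of −0.36 and −0.35 (adjusted p = 0.048 and 0.040, limma). RRP9 and IMP4 were called in 7 of 9 processing settings and IMP3 in 4. With 1 strain left out RRP9 was called in 1 of 5 fits and IMP3 and IMP4 in 0. MRD1, an RNA-binding protein needed for the small subunit RNA, missed the threshold at −0.41 (SE 0.10, adjusted p = 0.051). Its ratio with TSA was −0.13 in asf1, −0.80 in chz1, −0.31 in nap1, −0.48 in vps75 and −0.33 in rtt106. The wild type with TSA was at −0.50, lower than all deletions with TSA except chz1. Without TSA it was 0.00 in asf1, 0.79 in chz1, −0.17 in nap1, −0.28 in vps75 and −0.15 in rtt106. MRD1 was thus lower with TSA in all 5 strains, although its values with and without TSA overlapped between strains.

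UTP14, which activates the helicase Dhr1, varied mainly in the chz1 deletion. With TSA it was at −0.26 in asf1, −0.29 in chz1, 0.03 in nap1, −0.28 in vps75 and −0.29 in rtt106, and in the wild type with TSA at −0.03. Without TSA it was at −0.07 in asf1, 1.03 in chz1, −0.03 in nap1, −0.03 in vps75 and −0.19 in rtt106. Apart from the 1.03 of the chz1 deletion, its values with and without TSA overlapped.

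The 2 processome members with the smallest TSA differences behaved otherwise. UTP22, a subunit that is also part of the CURI complex with Ifh1, was at −0.18 in asf1, −0.23 in chz1, −0.11 in nap1, −0.12 in vps75 and −0.15 in rtt106 with TSA. It was at 0.00 in the wild type with TSA and at −0.09 in asf1, −0.08 in chz1, −0.22 in nap1, −0.20 in vps75 and −0.19 in rtt106 without TSA. All 10 of its values in deletions were below 0 and within about the same range with and without TSA, and it was one of 4 members that were not raised in the chz1 deletion without TSA. UTP20, a large protein that joins the processome late, was at −0.45 in asf1, −0.31 in chz1, 0.06 in nap1, −0.01 in vps75 and −0.32 in rtt106 with TSA. In the wild type with TSA it was at 0.09, and without TSA at 0.12 in asf1, −0.09 in chz1, −0.06 in nap1, 0.00 in vps75 and −0.65 in rtt106. Its lowest value came from the rtt106 deletion without TSA.

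NSR1 and LTV1 are 40S factors outside the processome core. NSR1, the yeast relative of nucleolin, was called lower than untreated wild type on the TSA arrays, with a mean of −0.45 (SE 0.09, adjusted p = 0.038, limma). Its ratio with TSA was −0.27 in asf1, −0.80 in chz1, −0.31 in nap1, −0.54 in vps75 and −0.33 in rtt106. It was −0.40 in the wild type with TSA and −0.01 in asf1, 0.86 in chz1, −0.31 in nap1, −0.35 in vps75 and −0.34 in rtt106 without TSA. In the asf1, chz1 and vps75 deletions it was lower with TSA than without, and in nap1 and rtt106 the values with and without TSA were nearly the same. LTV1, which acts late in 40S maturation and export, was at −0.60 in asf1, −0.63 in chz1, −0.18 in nap1, −0.27 in vps75 and 0.00 in rtt106 with TSA. It was at 0.10 in the wild type with TSA and at −0.03 in asf1, 1.04 in chz1, −0.21 in nap1, −0.14 in vps75 and 0.04 in rtt106 without TSA. LTV1 had the largest mean TSA difference of the 51 genes, at −0.48 (SE 0.25, adjusted p = 0.81), and most of it came from the asf1 and chz1 deletions.

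Among the 6 genes of both subunits or of no assigned subunit, 3 were called lower than untreated wild type on the TSA arrays. RRP12 was at −0.67 in asf1, −0.75 in chz1, −0.42 in nap1, −0.66 in vps75 and −0.69 in rtt106 with TSA, at −0.22 in the wild type with TSA, and at −0.31 in asf1, 0.18 in chz1, −0.15 in nap1, −0.35 in vps75 and −0.53 in rtt106 without TSA. It was lower with TSA in all 5 strains, although the rtt106 deletion without TSA lay below the nap1 deletion with TSA, and was the lowest or second lowest of the 51 genes on 6 arrays. NOP58 and NOP1 are core proteins of the box C/D particles that methylate ribosomal RNA, and NOP1 (fibrillarin in animals) is the methyltransferase. NOP58 had a mean of −0.41 on the TSA arrays (SE 0.06, adjusted p = 0.024) and NOP1 a mean of −0.36 (SE 0.06, adjusted p = 0.029, limma). NOP58 was at −0.47 in asf1, −0.51 in chz1, −0.24 in nap1, −0.52 in vps75 and −0.32 in rtt106 with TSA, at 0.00 in the wild type with TSA, and at −0.12 in asf1, 0.34 in chz1, −0.21 in nap1, −0.21 in vps75 and −0.39 in rtt106 without TSA. NOP1 was at −0.29 in asf1, −0.49 in chz1, −0.20 in nap1, −0.41 in vps75 and −0.40 in rtt106 with TSA, at −0.25 in the wild type with TSA, and at −0.13 in asf1, −0.26 in chz1, −0.28 in nap1, −0.14 in vps75 and −0.38 in rtt106 without TSA. Both genes had overlapping values with and without TSA. NOP1 was below 0 on all 11 arrays, and in the chz1 deletion without TSA it was the lowest of the 51 genes. For such a gene a constant dye bias and lower RNA cannot be told apart.

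HAS1, a DEAD-box helicase of both pathways, did not pass on the TSA arrays at −0.36 (SE 0.10, adjusted p = 0.084). It was at −0.04 in asf1, −0.67 in chz1, −0.11 in nap1, −0.54 in vps75 and −0.43 in rtt106 with TSA, at −0.36 in the wild type with TSA, and at −0.06 in asf1, 0.07 in chz1, −0.22 in nap1, −0.03 in vps75 and −0.25 in rtt106 without TSA. The asf1 array with TSA was the exception, close to 0. NOP13, a nucleolar RNA-binding protein, was at −0.29 in asf1, −0.60 in chz1, −0.17 in nap1, −0.33 in vps75 and −0.13 in rtt106 with TSA, at −0.37 in the wild type with TSA, and at −0.21 in asf1, 0.97 in chz1, −0.35 in nap1, −0.30 in vps75 and −0.12 in rtt106 without TSA. Its mean TSA difference of −0.30 came from the chz1 deletion, since without that strain it was 0.02. RRP5, needed for the cuts that lead to both subunits, was at −0.30 in asf1, −0.23 in chz1, 0.09 in nap1, −0.22 in vps75 and −0.14 in rtt106 with TSA, at −0.16 in the wild type with TSA, and at −0.22 in asf1, −0.20 in chz1, 0.00 in nap1, −0.25 in vps75 and −0.19 in rtt106 without TSA. It was the only member whose mean TSA difference was above 0, at 0.01 (SE 0.07).

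Of the 23 factors of the 60S subunit, 6 were called lower than untreated wild type on the TSA arrays. The lowest of these were NOP15, an RNA-binding protein of the spacer between the large-subunit RNAs, at −0.43 (SE 0.09, adjusted p = 0.040) and MAK16, a partner of Rpf1, at −0.36 (SE 0.06, adjusted p = 0.025). RLP7, a relative of a ribosomal protein, stood at −0.32 (SE 0.07, adjusted p = 0.048), and the helicase DBP9 at −0.31 (SE 0.06, adjusted p = 0.036, limma). NOC3, a partner of NOC2 in a 60S assembly complex, stood at −0.31 (SE 0.07, adjusted p = 0.048, limma) and EBP2, a partner of BRX1, at −0.27 (SE 0.06, adjusted p = 0.042). NOP15, MAK16 and DBP9 were called in 7 of 9 processing settings, EBP2 in 5, RLP7 in 4 and NOC3 in 3. With 1 strain left out NOP15 and MAK16 were each called in 1 of 5 fits and the rest in 0. RRP8, a methyltransferase of the large-subunit RNA, had the lowest mean of the class at −0.43 but did not pass (SE 0.11, adjusted p = 0.063). Its values were spread between −0.81 in the asf1 deletion and −0.18 in the nap1 deletion with TSA.

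NOP15 was at −0.59 in asf1, −0.60 in chz1, −0.08 in nap1, −0.46 in vps75 and −0.40 in rtt106 with TSA, at 0.12 in the wild type with TSA, and at −0.03 in asf1, 0.80 in chz1, −0.31 in nap1, −0.04 in vps75 and −0.30 in rtt106 without TSA. It was lower with TSA in every strain except nap1. NOP8, a nucleolar partner of NIP7, was at −0.18 in asf1, −0.42 in chz1, −0.12 in nap1, −0.20 in vps75 and −0.16 in rtt106 with TSA, at −0.16 in the wild type with TSA, and at 0.07 in asf1, 0.66 in chz1, 0.13 in nap1, 0.01 in vps75 and 0.01 in rtt106 without TSA. It was the only one of the 51 genes whose 5 values with TSA all lay below its 5 values without TSA, which held for 0.254% of all genes. Its values without TSA in the deletions other than chz1 were near 0, unlike those of most members.

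MAK5, a DEAD-box helicase, was at −0.71 in asf1, −0.60 in chz1, −0.01 in nap1, −0.28 in vps75 and 0.02 in rtt106 with TSA, at 0.13 in the wild type with TSA, and at −0.11 in asf1, 1.05 in chz1, −0.37 in nap1, −0.10 in vps75 and −0.06 in rtt106 without TSA. NUG1, a GTPase of 60S export, was at −0.18 in asf1, −0.66 in chz1, −0.19 in nap1, −0.41 in vps75 and −0.21 in rtt106 with TSA, at −0.39 in the wild type with TSA, and at 0.01 in asf1, 1.02 in chz1, −0.28 in nap1, −0.27 in vps75 and −0.22 in rtt106 without TSA. Both were more than 2-fold higher in the chz1 deletion without TSA than in wild type, and in the other strains their values with and without TSA overlapped. The smallest TSA differences of the class were those of NOP12 and DBP3. NOP12, an RNA-binding protein of large-subunit RNA processing, was at −0.20 in asf1, −0.41 in chz1, −0.18 in nap1, −0.25 in vps75 and −0.03 in rtt106 with TSA, at −0.11 in the wild type with TSA, and at −0.06 in asf1, 0.40 in chz1, −0.37 in nap1, −0.14 in vps75 and −0.01 in rtt106 without TSA. DBP3, a DEAD-box helicase, was at −0.53 in asf1, −0.46 in chz1, −0.05 in nap1, 0.01 in vps75 and 0.34 in rtt106 with TSA, at 0.22 in the wild type with TSA, and at −0.15 in asf1, 0.44 in chz1, −0.30 in nap1, −0.26 in vps75 and 0.22 in rtt106 without TSA. Both had overlapping values with and without TSA. DBP3 was the highest member in both rtt106 arrays, and the highest member in the vps75 deletion with TSA.

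The TSA effect itself, the difference between the array with and the array without TSA of the same strain, passed the test for no gene. Of the 51 genes 0 were called, as were 0.0% of all genes, with a smallest adjusted p among the members of 0.81 (limma with strain as a block). At an unadjusted p under 0.05 2 members were lower and 0 higher, RRP12 at −0.41 (SE 0.12) and NOP8 at −0.39 (SE 0.15), against 1.89% of all genes that were lower at that level. The mean difference was below 0 for 50 of 51 genes, against 50.4% of all genes, with a median of −0.27. Without the chz1 deletion the median was −0.08, and 45 of 51 genes were below 0.

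The values varied between strains, with 1 pair of arrays each and no test. The median TSA difference of the 51 genes was −0.20 in the asf1, −0.95 in the chz1, 0.12 in the nap1, −0.03 in the rtt106 and −0.18 in the vps75 deletion. In the nap1 deletion 44 of 51 genes were higher with TSA than without, against 50.3% of all genes. There 117 of 137 cytosolic ribosomal protein genes were also higher, with a median of 0.19. This difference may hold a dye bias, since the direction of the nap1 array without TSA was turned by its NAP1 signal. Without the nap1 arrays the median of the mean TSA difference was −0.38, with 51 of 51 genes below 0 and again 0 genes called. At least 1.5-fold lower with TSA were 42 genes in chz1, against 13.3% of all genes, and 2 in asf1, against 1.3%. No member was that much lower in nap1 (1.91% of all genes), rtt106 (1.05%) or vps75 (0.389%). MRD1, RRP12, NOP8 and NOC3 were the 4 genes lower with TSA in all 5 strains, or 7.84% of the members, against 3.87% of all genes. In 4 or more strains 31 of 51 were lower, or 60.8%, against 22.3% of all genes. With the 2 vps75 arrays exchanged, the vps75 median was 0.18 in place of −0.18.

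**Figure D3:**
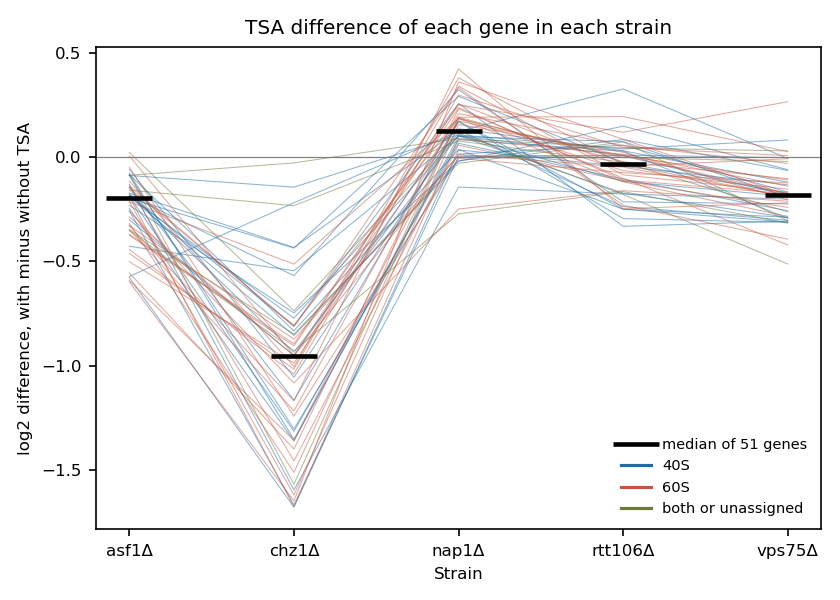
Difference in log2 ratio between the array with and the array without TSA of each deletion strain, as a thin line for each of the 51 genes coloured by subunit class, with the median of all 51 as a black bar. The chz1 deletion has its median at −0.95 and the nap1 deletion at 0.12, and no strain was measured in replicate.

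Without TSA no difference between the mean of the 5 deletions and the wild type passed the test. Of the 51 genes 0 were called, as were 0.0% of all genes, and the smallest adjusted p of a member was 0.65 (limma). At an unadjusted p under 0.05 2 members were lower and 0 higher, against 2.7% of all genes that were lower. These were NOP1, with a mean of −0.24 (SE 0.07), and RRP5, with a mean of −0.17 (SE 0.07). Both also stayed below 0 in the chz1 deletion. The median over the 51 genes was −0.02 with the chz1 array and −0.16 without it, when 50 of 51 genes were below 0. The exception was NOP8 at 0.06.

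The chz1 deletion without TSA was the only array on which the genes were high. RRP1, a 60S factor, was highest at 1.19, followed by MAK5 at 1.05. NOP1 at −0.26, RRP5 at −0.20, UTP20 at −0.09 and UTP22 at −0.08 were the 4 genes below 0. In 46 of 51 genes this array gave the highest of the 11 values, against 26.7% of all genes, and in 26 of 51 the chz1 deletion with TSA gave the lowest, against 10.2%. The same array had the widest spread over all genes, and its file had fewer columns than the others and listed 18 control probes, where the other files listed 0. After each array was scaled to the same spread, its median was 0.25 in place of 0.53. The part of these features in the result was not tested. One of its labels speaks of a treatment and another of glucose, but CHZ1 itself was low on it, at −2.86.

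The 40S and 60S factors had similar medians on 10 of 11 arrays. On the deletion arrays with TSA the medians of the 40S and of the 60S factors differed by −0.08 to 0.04 (40S minus 60S), and in the wild type with TSA by −0.02. Without TSA they differed by −0.06 to 0.06, except in the chz1 deletion. On that array the 40S factors had a median of 0.36 and the 60S factors one of 0.66, a difference of −0.30. Of the 40S factors 9 of 22 were at least 1.5-fold higher there, and of the 60S factors 13 of 23. All 23 of the 60S factors were above 0, as were 20 of the 22 of the 40S subunit. The difference was −0.22 and −0.18 in the repeat measurements taken singly and −0.14 after scaling, and with 1 array it has no test. The 6 genes of both or no assigned subunit had a lower median there, 0.12. Assembly factors outside the members showed a smaller gap between the subunits on that array. Their medians were 0.52 for 43 other 40S factors and 0.59 for 44 other 60S factors. Averaged over the strains, the TSA difference had a median of −0.27 in the 40S class and of −0.28 in the 60S class.

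**Figure D4:**
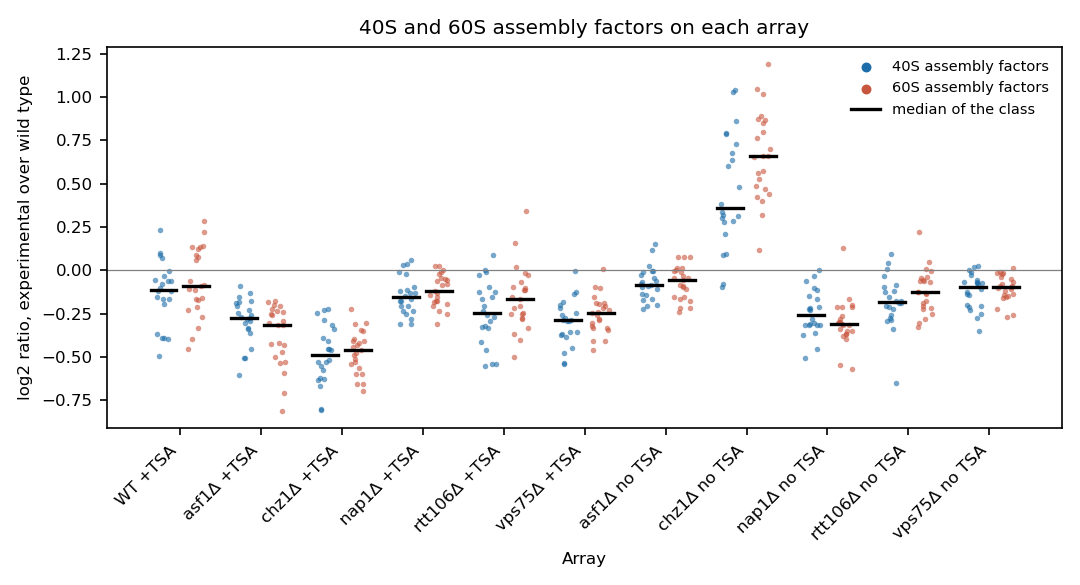
Log2 ratio over reference RNA of the 22 factors of the 40S subunit (blue) and the 23 of the 60S subunit (red) on each array, with the median of each class as a black bar. The medians lie within 0.08 of each other on all arrays except that of the chz1 deletion without TSA, where they are 0.36 and 0.66.

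Contrasts of each deletion with the mean of the other 4, over arrays with and without TSA, called no member. The shares of all genes called were 1.96% for asf1, 0.287% for chz1, 0.0338% for nap1, 2.96% for vps75 and 2.27% for rtt106. In these contrasts the 51 genes had a median of 0.20 for chz1, while the medians of the other deletions ran between −0.08 and −0.05. For the chz1 deletion this average joins the highest and the lowest array of the series. The smallest adjusted p was that of UTP20, at 0.33, with a difference of −0.39 between rtt106 and the other strains (SE 0.17, limma). The 2 arrays of a strain may share a culture.

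The 51 genes varied together. Their pairwise correlation over the 11 arrays had a median of 0.808, which was 0.556 without the array of the chz1 deletion without TSA. All arrays share the reference, so this is a description. UTP13 followed the median of the other members most closely, with a correlation of 0.975, and RRP5 did not follow it at −0.022. UTP20 at 0.246, NOP1 at 0.441 and UTP22 at 0.513 also had low correlations over the 11 arrays. These 4 were the genes that were not raised in the chz1 deletion without TSA, which is the array that stood apart. Without that array their correlations were higher, at 0.157 for RRP5, 0.405 for UTP20, 0.780 for NOP1 and 0.568 for UTP22, beside 0.906 for UTP13.

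The genes outside the 51 whose values over the 11 arrays were most like the members' median were SYO1, SDA1, ALB1, OTU2, DHR2, GPN3, PWP1, TRM11, CNS1 and RPF2, with correlations of 0.977 to 0.987. Of these, SDA1, ALB1 and RPF2 are known 60S factors and DHR2 is a 40S helicase, and SYO1 carries ribosomal proteins into the nucleus. SYO1 was at −0.30 in asf1, −0.67 in chz1, −0.09 in nap1, −0.36 in vps75 and −0.19 in rtt106 with TSA, at −0.15 in the wild type with TSA, and at −0.05 in asf1, 1.19 in chz1, −0.32 in nap1, −0.18 in vps75 and −0.23 in rtt106 without TSA. Of the 50 genes most like the median 23 were other assembly factors, and 18 without the chz1 array, whereas such factors make up 1.59% of the genes searched.

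Assembly factors outside the 51 genes were also lower on the TSA arrays. Of these, 16 of 44 other 60S factors and 7 of 43 other 40S factors were lower at an adjusted p under 0.05, against 3.48% of all genes. In both lists 0 were higher (limma), and their medians were −0.26 and −0.25 beside 0.003 for all genes. By the size of their TSA difference the lists are named at both ends. Among the 40S factors FAF1 at −0.61 and the helicase DHR2 at −0.59 had the lowest mean TSA difference, and FCF1 at −0.03 and RRP7 at 0.12 the highest. Among the 60S factors RPF1 at −0.47 and NOP53 at −0.39 were lowest, and the helicases SPB4 at −0.16 and DBP2 at −0.12 highest. None of these 8 TSA differences passed the test. Of 6 other core proteins of small nucleolar particles 0 were called on the TSA arrays, with a median of −0.12 and with NHP2 at −0.35 and SNU13 at −0.08 as the lowest and highest TSA difference.

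The genes of the polymerases that make ribosomal and transfer RNA had medians nearer to 0. Of 14 genes of RNA polymerase I and its factors 2 were lower on the TSA arrays, against 3.48% of all genes, and 0 higher, with a median of −0.19. RPA14, a subunit, was one of these, at −0.35 (SE 0.08, adjusted p = 0.048, limma). Of 13 genes of RNA polymerase III 1 was lower, RPC82, at −0.26 (SE 0.06, adjusted p = 0.048), with a median of −0.19. Among 11 regulators of the regulon 1 was lower, TOD6, a repressor that binds promoters of ribosome biogenesis genes, at −0.48 (SE 0.09, adjusted p = 0.036, limma). Whether 1 or 2 calls in lists this short exceed the share of all genes was not tested. In the chz1 deletion TOD6 was at −0.77 with TSA and at 1.31 without TSA. SFP1, an activator of the regulon, had a mean of −0.12 on the TSA arrays (SE 0.09, adjusted p = 0.40) and stood at −0.88 in the chz1 deletion without TSA.

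Cytosolic ribosomal protein genes had a median of 0.002 on the TSA arrays. Loess sets 0 by genes of like brightness, and its part in this value was not tested. Of 137 such genes 5 were lower and 7 higher there at an adjusted p under 0.05 (limma). Among all genes 3.48% were lower and 3.41% higher. Many of them exist as near-identical copies, and so do SSF1 among the 51 genes and SSF2, so that a probe may read both copies.

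General stress genes had medians above 0 on all arrays of deletion strains except that of chz1 without TSA. Of 20 such genes 7 were higher on the TSA arrays, against 3.41% of all genes, and 0 lower (limma), with a median of 1.02. Among the 7 were the glycogen phosphorylase gene GPH1 at 1.71 (SE 0.37, adjusted p = 0.046) and TSL1, of trehalose synthesis, at 1.12 (SE 0.23, adjusted p = 0.040, limma). HSP42 and CTT1 had the lowest TSA differences of the list, at −0.82 and −0.09, and did not pass. With TSA the median of the 20 genes was 1.99 in the asf1, 0.84 in the chz1, 0.45 in the nap1, 0.50 in the rtt106 and 0.81 in the vps75 deletion, and 0.03 in the wild type. Without TSA it was 1.45 in the asf1, −0.01 in the chz1, 0.64 in the nap1, 0.29 in the rtt106 and 0.20 in the vps75 deletion. The sizes of the shifts were not in proportion, since the asf1 deletion without TSA had a stress median of 1.45 beside a median of −0.09 for the ribosome biogenesis genes.

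**Figure D5:**
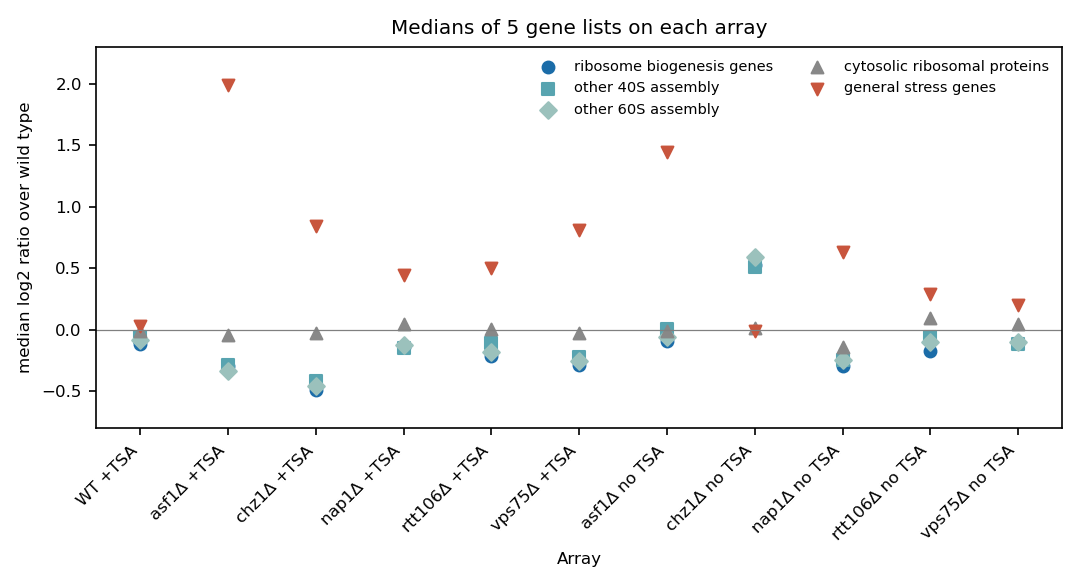
Median log2 ratio over reference RNA of 5 gene lists on each of the 11 arrays. Stress genes reach 1.99 in the asf1 deletion with TSA, the 3 lists of assembly factors lie close to each other on every array, and the medians of the ribosomal protein genes lie between −0.14 and 0.10.

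Some members sit next to another assembly gene in the genome. By the gene order of the RefSeq annotation (assembly R64), 5 of 51 members had such a gene as a direct neighbour, or 9.80%, against 4.86% of all genes. The pairs were SSF1 with RRP3, UTP9 with RIX1, NOC3 with CMS1, UTP13 with RSA3 and NOC4 with RRP15. In each pair the partner was outside the 51 genes. The correlation of the pairs over the 11 arrays lay between 0.589 and 0.911. The median of 0.808 given above is between members, so it is no baseline for these pairs.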

How the data were processed

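The authors deposited, per the file headers, 2 repeat intensity values of each probe and channel, with a log10 ratio, and, in the series matrix, log2 values that hold the fold rounded to 1 decimal. Their background correction is not given in the sources used here. In the matrix the columns of the 2 vps75 arrays are exchanged relative to the sample files, which were used. Per the labels, the reference of the TSA arrays and of the chz1 array without TSA is wild type in one field and the untreated deletion in another. Each deleted gene was present in the reference channel of its own arrays, so wild type was taken. The columns of the nap1 array without TSA were turned, by its NAP1 signal.

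Signals were offset by 50, log2 ratios of experimental over reference RNA were corrected by loess (span 0.3) within each repeat measurement with limma 3.58.1 in R 4.3.3, and the 2 measurements were averaged. A gene counted as detected above 2 times the median signal of HIS3, LEU2, LYS2 and URA3, and was tested if so detected for 1 or both channels on 50% or more of the deletion arrays. The TSA effect was estimated with lmFit and eBayes over 10 arrays with strain as a block. The 2 arrays of a strain are paired by design, and their deviations correlated across genes at −0.15 (chz1) to 0.68 (vps75). Means over 5 arrays were tested against 0, which leaves out the spread of the wild type. Adjustment was by Benjamini-Hochberg over all genes at 0.05. The fit of the TSA effect was also run on simulated data. The simulated effects were far larger than the members' TSA differences, so that run cannot show how well differences of their size are found.

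The members, their classes and the other gene lists were chosen with earlier results of these data known. Values on every array are given for the 4 lowest and 2 highest members by mean TSA difference in the 40S and in the 60S class and for all 6 of the third class, with UTP5 added after its values were seen. Genes of other lists were named from their 2 lowest and 2 highest, and outside the members the 10 genes most correlated with their median. Names follow RefSeq (R64), which matched 5756 of 6256 genes. Promoter motifs were planned and were not analysed here. Alternatives were no offset, median centring, scaling between arrays, the deposited ratios, the series matrix, no filter, single measurements, and leaving out a strain. The exchange of the vps75 arrays, and the alternatives for the means against wild type and for single strains, were added after seeing the data.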

Additional observations from a re-analysis of the deposited data

Results flagged for a closer look

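The median of the ribosome biogenesis genes in the chz1 deletion without TSA was 0.53 above untreated wild type, whereas the medians of the other 4 deletions without TSA were all below 0. The median TSA difference in the nap1 deletion was 0.12, whereas it was below 0 in the other 4 strains. The array of the nap1 deletion without TSA was turned by its NAP1 signal, so that this difference may hold a dye bias. Neither difference between strains was tested, because each strain was measured once with and once without TSA.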

How the results depend on the processing

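The direction of the means on the TSA arrays, below 0 for the median of the 51 genes, held in every alternative run, while the calls did not. Genes called lower on the TSA arrays numbered 131 with no offset, 359 with median centring, 332 with scaling between arrays, 0 in the series matrix and 15 with the vps75 arrays exchanged, against 206. Leaving out 1 strain gave 5 to 98 genes. Members called lower were 31 with median centring, 0 in the matrix, 1 with the exchange and 0 to 8 with a strain left out, against 18. If the untreated deletion is read as the reference of the TSA arrays, as 1 label field has it, 408 genes are called for TSA, against 0. These are the lower and higher calls of the same fit of the TSA arrays, under another name, and not a further run. The reference held each deleted gene, so wild type was taken. No further call changed with or without the strain block.

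Median centring gave members' medians of −0.50 in the asf1, −0.17 in the nap1, −0.27 in the rtt106 and −0.37 in the vps75 deletion with TSA and −0.21 in the wild type with TSA. Without TSA it gave −0.20 in asf1, −0.27 in nap1, −0.18 in vps75 and −0.23 in rtt106, and a TSA difference of −0.31 in asf1. Scaling between arrays gave −0.20 in the asf1, −0.21 in the nap1 and −0.18 in the rtt106 deletion with TSA, −0.15 in the wild type with TSA, and, without TSA, 0.25 in chz1, −0.37 in nap1 and −0.15 in vps75. Its TSA differences were −0.12 in asf1, −0.72 in chz1 and −0.14 in vps75. The deposited ratios gave −0.36 in asf1, −0.47 in chz1, −0.11 in nap1, −0.19 in rtt106 and −0.34 in vps75 with TSA, and −0.13 in asf1, 0.60 in chz1 and −0.22 in nap1 without TSA. The series matrix, whose rounding leaves many values at 0, gave −0.38 in chz1, 0 in nap1, −0.14 in rtt106, 0 in vps75 and 0 in the wild type with TSA. Without TSA it gave 0 in asf1, −0.14 in nap1, −0.26 in vps75 and −0.14 in rtt106, and its TSA differences were −0.26 in asf1, −0.86 in chz1 and 0.24 in vps75. The first measurement alone gave −0.27 in nap1 without TSA. With the vps75 arrays exchanged, the vps75 medians were −0.11 with TSA and −0.28 without TSA, and the TSA difference 0.18. The wild type array with its direction turned gave 0.11.

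In the chz1 deletion without TSA, the 40S minus 60S difference was −0.14 with scaling, −0.22 in the first and −0.18 in the second measurement. The TSA effects of members near 0 changed sign. UTP22 was at 0.0247 with scaling, 0.00368 in the second measurement and −0.0280 to 0.0346 with a strain left out. RRP5 was at −0.0552 with median centring, −0.00910 in the deposited ratios, −0.0231 in the matrix, −0.0261 in the second measurement, −0.00256 with the exchange and −0.0107 to 0.0334 with a strain left out. With a strain left out UTP20 ran from −0.17 to 0.0556, DBP3 from −0.23 to 0.0649 and NOP13 from −0.42 to 0.0192. Except for the strains left out, which leave fewer arrays, the cause was not tested. The number of arrays and their single measurement of each strain and treatment limit the precision.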
